A study of Mus musculus with 12 samples.

Results

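The genes described here are 59 genes of G2 phase and mitosis, taken as a list of genes with known roles in entry into mitosis, the spindle, the kinetochore, chromosome condensation, anaphase and cytokinesis. They were found by their gene symbols in the deposited count tables. The rule itself uses no measured value, but the list was drawn up with earlier results of these data known. All 59 were present among the 24421 genes listed. All 59 also passed the filter on low counts that kept 12878 genes for testing, and no library had a count of 0 for any of them. The study measured RNA by sequencing in B220+ cells of the mouse spleen, B220 being a form of the CD45 surface protein carried by cells of the B lineage. There were 12 libraries, 1 from each of 3 mice in 4 genotype groups, and all mice were 4 to 5 weeks old with no treatment named. The WT group (labelled Max WT) had an intact Max gene and no Myc transgene. The Max KO group had a conditional knockout of Max, and the labels name neither the Cre line nor the part of the gene that was removed. The EuMyc group (labelled EuMyc Max WT) carried intact Max and the EuMyc transgene, which places Myc under an enhancer of the immunoglobulin heavy chain locus that is active in the B lineage. The series title calls such cells premalignant. The EuMyc Max KO group combined the transgene with the conditional Max knockout.

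MYC and MAX form a heterodimer that binds E-box sequences, and MAX is the obligate partner of MYC at most of its targets. Genes of G2 and mitosis are transcribed late in the cell cycle: the DREAM complex keeps them off in resting cells, and the MuvB core with B-MYB and then FOXM1 turns them on, largely through the CHR and CCAAT elements of their promoters. Most B cells of a normal spleen are resting, so many of these transcripts may come from a small dividing fraction, which was not measured here. In RNA from a bulk sample fewer dividing cells and less RNA per dividing cell cannot be told apart.

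The libraries held between 14973332 and 21671601 reads in genes. Levels are in CPM, counts scaled to the size of the library. Max itself measured 139, 110 and 108 CPM in WT and 126, 127 and 130 in EuMyc, with 102, 102 and 99.8 in Max KO and 108, 104 and 102 in EuMyc Max KO. Its difference between Max KO and WT did not pass the test, with a log2 fold change of -0.23 (SE 0.078, adjusted p = 0.0623). A count over the whole gene includes exons outside a deleted segment, so it does not check the knockout labels. Myc measured 115, 96 and 106 CPM in WT and 975, 1050 and 1010 in EuMyc, with 136, 124 and 120 in Max KO and 514, 565 and 487 in EuMyc Max KO, so each library labelled EuMyc lay above each library without the transgene. B cell markers were present in every library, all 10 of the list being detected, with a summed level of 22180 to 24560 CPM in WT, 6879 to 8595 in EuMyc, 21850 to 22170 in Max KO and 16360 to 19630 in EuMyc Max KO. Markers of progenitor and precursor B cells summed to 191 to 239 CPM in WT, 1304 to 1354 in EuMyc, 188 to 216 in Max KO and 244 to 306 in EuMyc Max KO. The EuMyc Max KO libraries stood apart from one another in their erythroid markers, whose summed level was 7645, 5095 and 1336 CPM in libraries 1, 2 and 3, against 70.7 to 572 CPM in the other 9 libraries. Of 22 erythroid markers 21 were in the tables; Slc4a1, the red cell anion exchanger, measured 3200, 2080 and 488 CPM in the EuMyc Max KO libraries, Hbb-bt and Hbb-b2 were at 0 there, and haemoglobin genes made up at most 0.001396% of the reads in genes of any library. Macrophage and monocyte markers (11 of 12 in the tables) followed the same order in those libraries, at 6627, 4767 and 3661 CPM, with 2073 to 2630 in WT, 3417 to 4814 in Max KO and 1106 to 1325 in EuMyc.

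The 59 genes were low in WT cells, lower in Max KO cells, highest in EuMyc cells and in between in EuMyc Max KO cells. Their median level was 13.1, 12.6 and 13.7 CPM in WT, 143, 166 and 150 in EuMyc, 7.06, 6.90 and 5.49 in Max KO, and 59.9, 43.9 and 23.6 in EuMyc Max KO. The groups did not overlap in this median, and the EuMyc Max KO libraries were spread far wider than those of any other group. The order of the group means, Max KO below WT below EuMyc Max KO below EuMyc, held for all 59 genes. In EuMyc, the lowest library lay above the highest of the other 9 libraries for 58 genes; the exception was Pttg1. Within EuMyc Max KO, library 1 was the highest and library 3 the lowest for all 59 genes, by a ratio that ranged from 1.19 (Kif20b) to 4.15 (Nusap1) with a median of 2.47. Library 3, with the least erythroid signal, still lay above all 3 Max KO libraries for all 59 genes, and above all 3 WT libraries for 56. Cdc25b, Bub3 and Ndc80 were the exceptions. How often all genes tested have these patterns was not counted. For pairs of groups, all 3 EuMyc libraries lay above all 3 WT libraries for 39.7% of all genes tested. All 3 EuMyc Max KO libraries lay above all 3 Max KO libraries for 17.2%, and above all 3 WT libraries for 22.2%.

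**Figure D1:**
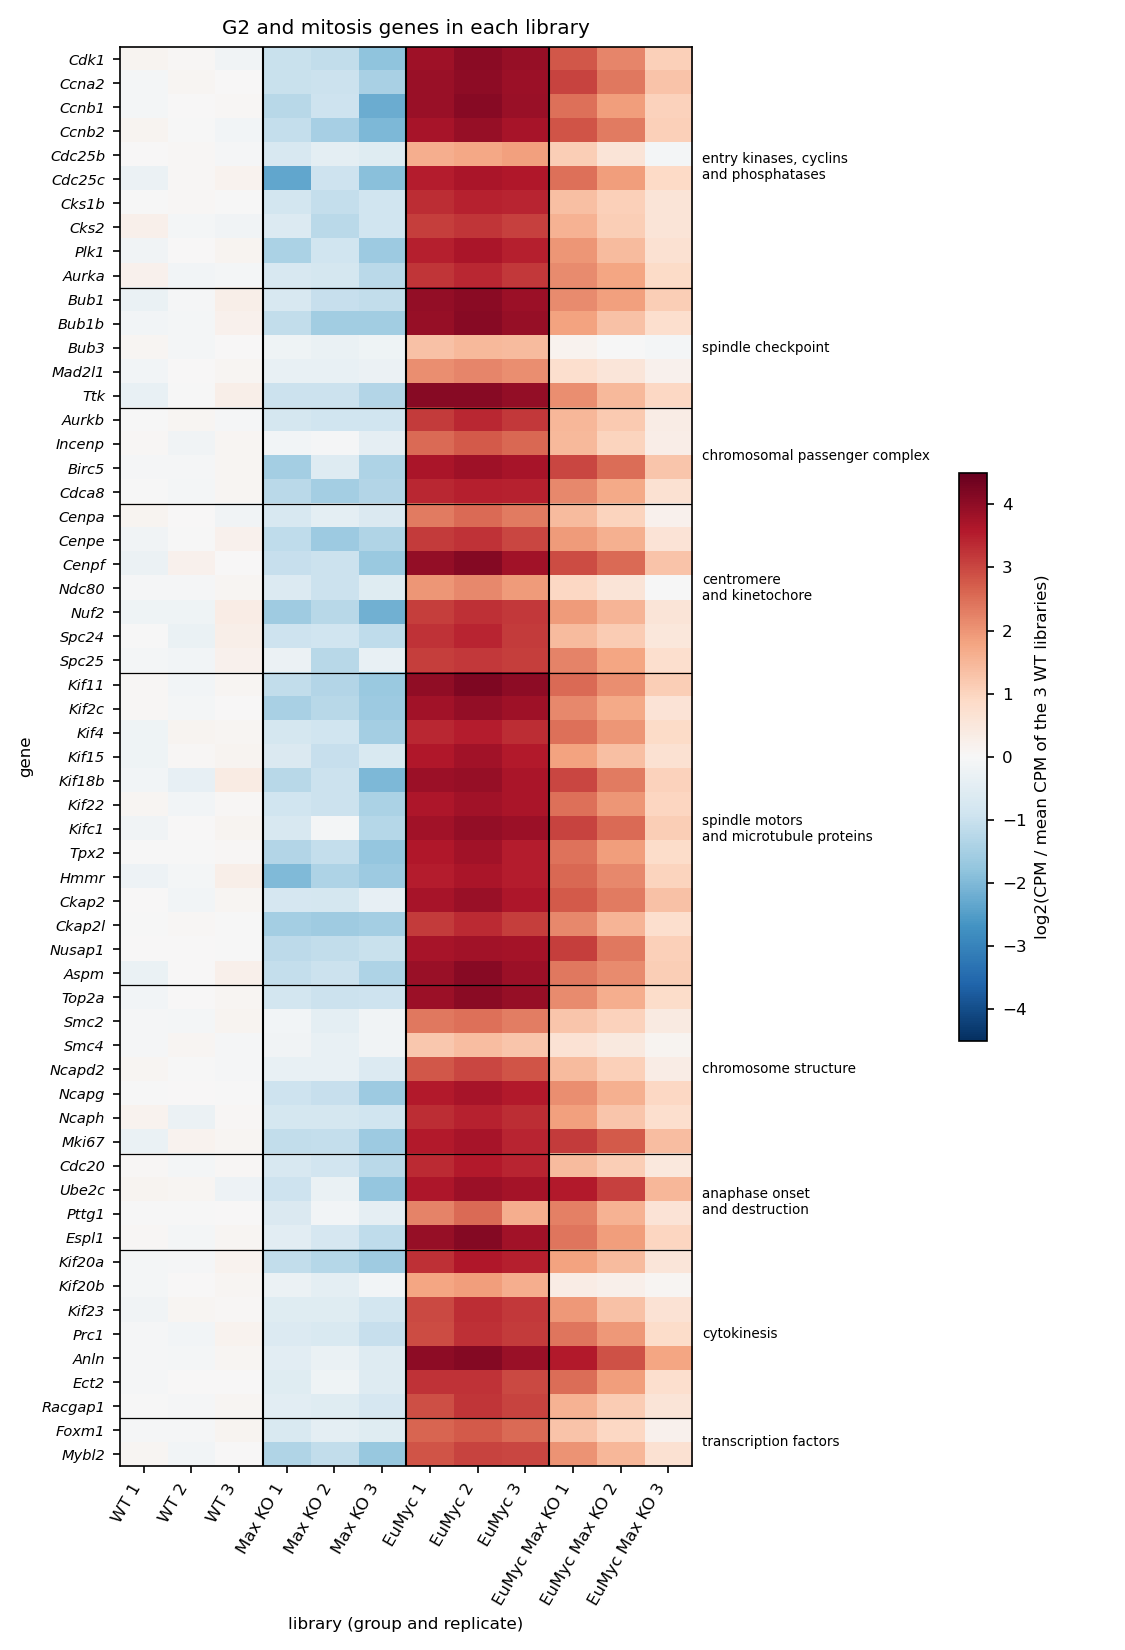
Level of each of the 59 genes in each of the 12 libraries, as log2 of the CPM over the mean CPM of the 3 WT libraries (red above, blue below), with genes ordered by role. The 3 Max KO columns are blue for nearly all genes, the 3 EuMyc columns are the deepest red, and the EuMyc Max KO columns are paler in library 3 than in library 1.

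Levels were also taken per kilobase of annotated exon, for a rough comparison between genes. The length joins all exons annotated for a gene, not those of the transcript expressed, so the ranks depend on the annotation. On this scale the most abundant transcripts in WT cells were those of Smc4, at 39.4 CPM per kb, Cdc25b at 28.3 and Cks2 at 19.0. In EuMyc cells the order was different, with Mki67 at 188 CPM per kb, Cks2 at 167 and Top2a at 149, while Smc4 at 96.1 ranked 8. In EuMyc Max KO cells Mki67 again ranked 1, at 95.9 CPM per kb, ahead of Smc4 at 52.9. Cdc25c, the CDK1-activating phosphatase, was the lowest member in every group, at 0.346 CPM per kb in WT, 4.20 in EuMyc, 0.115 in Max KO and 1.27 in EuMyc Max KO.

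The promoters of these genes share sequence features that the choice of genes did not use. RefSeq promoter windows of 300 bases, from 250 before to 50 after the annotated start, were matched by symbol for 50 of the 59 genes, giving 53 windows (GRCm38.p6). The letters TTTGAA, the core of the CHR element, were searched on both strands and were found in 77.4% of the members' windows, against 17.9% of all 32851 windows of that length and 12.2% of the windows of genes tested here. CCAAT, the letters bound by NF-Y, was found in 77.4% of the members' windows and 37.4% of all windows, and both elements together in 67.9% and 6.95%. A TTTGAA copy began within 50 bases of the start in 67.9% of the members' windows, compared with 4.94% of all windows. CACGTG, the canonical E-box, was in 5.66% of the members' windows (Anln, Espl1 and Ttk) and 7.15% of all windows. Neither TTTGAA nor CCAAT was in the windows of 7 members: Birc5, Mad2l1, Mybl2, Ncaph, Nuf2, Nusap1 and Pttg1. The windows follow the RefSeq start, which can differ from that of GENCODE vM21. By the latter, the windows of Mad2l1 and Mybl2 end before the gene begins. Those of Kif2c, Cdca8 and Kif4 lie wholly inside their genes. Absence or position of the letters is less certain for such members. A match is a description of letters and was not tested as a site. The windows of 6 genes are shown because their levels span the responses described here: Cdk1, Ccnb2 and Cdc20 with both elements near the start, Ttk with an E-box besides, Ube2c, which kept a high level in EuMyc Max KO libraries 1 and 2, and Pttg1, whose window has neither element. The Pttg1 window lies wholly inside the gene as annotated in GENCODE vM21, at chr11:43420250-43426251. The bases before that annotated start are not in the window and were not searched. The windows of the 6 genes, in the order named, lie at chr10:69352863-69353162 (minus strand), chr9:70421505-70421804 (minus), chr4:118437294-118437593 (minus), chr9:83834439-83834738 (plus), chr2:164769679-164769978 (plus) and chr11:43425932-43426231 (minus). Each is written 5′ to 3′ on the strand of its gene, with the letters TTTGAA and their reverse complement TTCAAA, the letters CCAAT and their reverse complement ATTGG, and the E-box CACGTG in capitals.
Cdk1: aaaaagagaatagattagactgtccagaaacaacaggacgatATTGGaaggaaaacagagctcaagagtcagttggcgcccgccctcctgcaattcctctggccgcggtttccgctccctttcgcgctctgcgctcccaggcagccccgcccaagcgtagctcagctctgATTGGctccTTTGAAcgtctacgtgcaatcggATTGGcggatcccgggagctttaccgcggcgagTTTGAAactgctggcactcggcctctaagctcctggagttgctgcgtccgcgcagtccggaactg
Ccnb2: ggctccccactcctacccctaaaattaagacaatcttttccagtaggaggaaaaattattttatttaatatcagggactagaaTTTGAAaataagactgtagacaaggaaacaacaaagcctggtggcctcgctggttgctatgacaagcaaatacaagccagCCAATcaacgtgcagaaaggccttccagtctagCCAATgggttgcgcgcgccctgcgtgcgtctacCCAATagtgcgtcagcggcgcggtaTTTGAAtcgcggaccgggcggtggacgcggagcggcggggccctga
Cdc20: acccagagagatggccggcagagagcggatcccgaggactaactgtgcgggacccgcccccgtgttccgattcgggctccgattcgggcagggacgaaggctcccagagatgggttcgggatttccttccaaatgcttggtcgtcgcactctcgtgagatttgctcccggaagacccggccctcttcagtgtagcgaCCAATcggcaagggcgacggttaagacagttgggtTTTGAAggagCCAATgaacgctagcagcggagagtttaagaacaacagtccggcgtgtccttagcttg
Ttk: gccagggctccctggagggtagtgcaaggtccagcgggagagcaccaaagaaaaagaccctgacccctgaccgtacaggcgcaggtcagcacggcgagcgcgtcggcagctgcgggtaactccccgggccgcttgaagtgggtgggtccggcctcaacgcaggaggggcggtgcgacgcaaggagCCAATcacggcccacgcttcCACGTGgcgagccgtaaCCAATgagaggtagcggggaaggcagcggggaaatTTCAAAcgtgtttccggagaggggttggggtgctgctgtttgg
Ube2c: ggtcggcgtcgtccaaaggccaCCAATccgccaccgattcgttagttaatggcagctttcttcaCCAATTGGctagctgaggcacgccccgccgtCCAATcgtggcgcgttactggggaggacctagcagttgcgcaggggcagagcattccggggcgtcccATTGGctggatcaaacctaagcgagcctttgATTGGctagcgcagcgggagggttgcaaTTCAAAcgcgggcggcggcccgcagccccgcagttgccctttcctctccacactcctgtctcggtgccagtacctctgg
Pttg1: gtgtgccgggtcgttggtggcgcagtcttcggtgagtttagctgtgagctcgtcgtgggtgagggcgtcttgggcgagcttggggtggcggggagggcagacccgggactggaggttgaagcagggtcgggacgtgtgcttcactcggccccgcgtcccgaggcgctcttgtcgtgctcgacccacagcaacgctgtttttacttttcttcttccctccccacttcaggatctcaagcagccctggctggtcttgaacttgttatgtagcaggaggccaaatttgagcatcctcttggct

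Counted with the annotated start as +1 and the base before it as -1, the TTTGAA copies of the Cdk1 window began at -71 and -15, that of Cdc20 at -18 and those of Ccnb2 at -167 and 5. The Ccnb2 window held CCAAT at -87, -54 and -21, and the Cdc20 window at -53 and -8. In the Ttk window the E-box began at -45, between CCAAT copies at -65 and -28. The Ube2c window held 6 CCAAT copies on either strand, a pair of which share bases, and 1 TTTGAA on the opposite strand at -29.

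**Figure D2:**
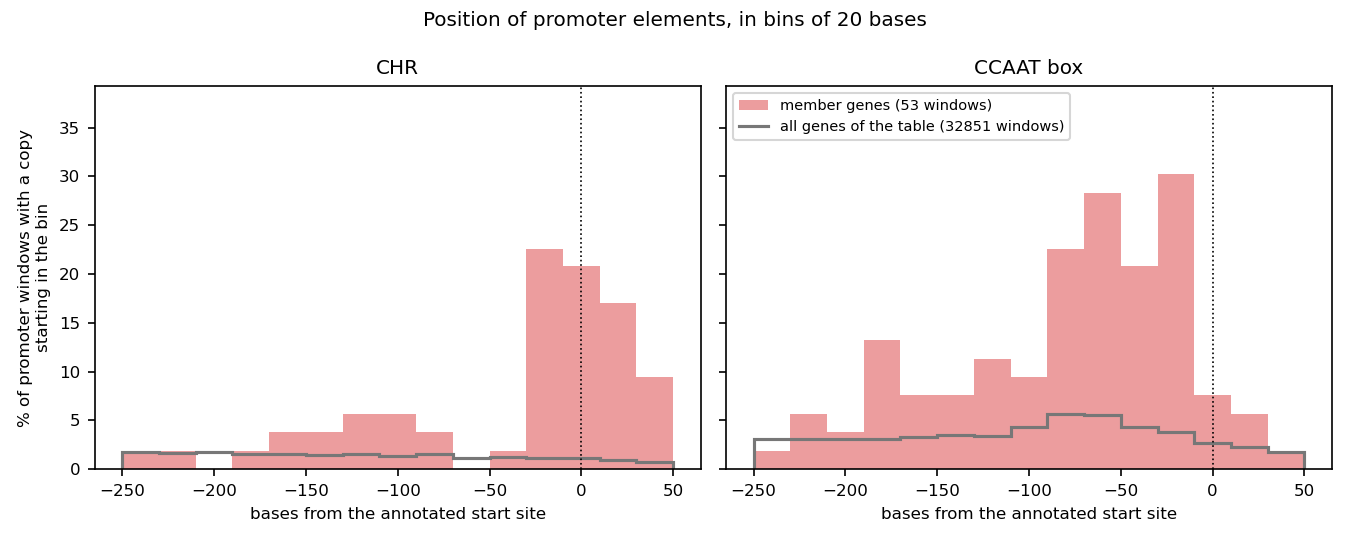
Share of promoter windows with a copy of the CHR letters (left) or the CCAAT letters (right) that begins in each bin of 20 bases, against distance from the annotated start, for the members' 53 windows (filled) and all 32851 windows (line). In the members, CHR copies are most frequent from 30 bases before the start to 30 after it, and CCAAT copies from 90 to 10 bases before it.

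EuMyc cells differed from WT cells in every gene of the list. All 59 rose, at an adjusted p under 0.05 (quasi-likelihood test of edgeR, adjusted after Benjamini and Hochberg over 12878 genes), where 36.7% of all genes tested rose and 34.9% fell. All 3 EuMyc libraries lay above all 3 WT libraries for all 59 genes, as they did for 39.7% of all genes tested. The median log2 fold change of the 59 was 3.46, against 0.012 over all genes tested. The mean level in EuMyc was between 2.43 (Smc4) and 16.8 (Kif11) times that in WT, with a median of 11. The largest rises were those of Kif11, the kinesin that pushes the spindle poles apart, at 4.07 (SE 0.33, adjusted p = 1.86e-06), Ttk, at 4.05 (SE 0.26, adjusted p = 7.98e-08), and Anln, at 4.02 (SE 0.39, adjusted p = 6.27e-06), all as log2 fold changes. The smallest rises were those of Smc4, at 1.28 (SE 0.12, adjusted p = 5.58e-07), Bub3, at 1.40 (SE 0.073, adjusted p = 3.15e-09), and Cdc25b, at 1.74 (SE 0.24, adjusted p = 7.77e-05). All 59 calls were also made with each of the 12 libraries left out in turn. In the same comparison all 10 B cell markers fell and 11 of 13 tested markers of progenitor and precursor B cells rose. Of 17 tested erythroid markers 12 rose, with sums of 443 to 572 CPM in EuMyc and 70.7 to 340 in WT. All 10 T cell markers fell, from sums of 54.3 to 79.3 CPM in WT to 9.78 to 15.7 in EuMyc, as did 8 of 9 tested markers of germinal centre B cells, from 170 to 182 CPM to 29.6 to 37.9, and 10 of 11 macrophage markers. The part of these cells in the result was not tested.

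In Max KO cells the genes were lower than in WT cells. Of the 59, 26 fell and none rose at an adjusted p under 0.05, where 7.74% of all genes tested fell and 7.27% rose. Over all genes tested this was 997 falls and 936 rises, and with library totals alone as the scaling 719 and 1130. An unadjusted p under 0.05 in the same test was found for 47 of the 59, and for 3951 of all 12878 genes tested. The log2 fold change was below 0 for all 59, with a median of -0.93 against -0.0032 over all genes tested. All 3 Max KO libraries lay below all 3 WT libraries for 57 of the 59, the exceptions being Incenp and Kifc1, as they did for 20.1% of all genes tested. Relative to the WT mean, the members' median level was 57.0%, 52.6% and 43.3% in Max KO libraries 1, 2 and 3. The lowest log2 fold changes were those of Hmmr, at -1.65 (SE 0.41, adjusted p = 0.0259), Nuf2, at -1.63 (SE 0.36, adjusted p = 0.017), and Cdc25c, at -1.60 (SE 0.46, adjusted p = 0.0353). The least changed were Incenp, at -0.19 (SE 0.24, adjusted p = 0.645), Smc4, at -0.21 (SE 0.11, adjusted p = 0.24), and Smc2, at -0.22 (SE 0.18, adjusted p = 0.464), none of which passed. Markers of germinal centre B cells, a dividing type, moved with the members: 7 of 9 tested fell, with a median log2 fold change of -2.80, from a summed level of 170 to 182 CPM in WT to 86.5 to 104.5 in Max KO. Plasma cell markers summed to 1106 to 1850 CPM in WT and 613 to 749 in Max KO, where 4 of 8 fell and 1 rose. Macrophage markers were higher in all 3 Max KO libraries than in any WT library, by the sums given above, and 4 of 11 rose. The part of these cells in the result was not tested.

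The number of genes called in Max KO differed between fits. It was 48 with only the WT and Max KO libraries, a fit that also has its own filter, scaling and number of genes adjusted for. Same-numbered WT and Max KO libraries deviated together, at correlations of 0.244, 0.39 and 0.105, so the replicate number was added to that fit as a block. The count was then 47. With EuMyc Max KO library 1 left out it was 40, and without library 3 of that group 49. Leaving out a library of either compared group gave fewer calls: 6, 9 and 3 without WT library 1, 2 or 3, and 7 without each Max KO library in turn. Falls over all genes tested moved too, from 997 to 411, 736 and 586 without WT library 1, 2 or 3. They were 423, 540 and 836 without Max KO library 1, 2 or 3. Without EuMyc Max KO library 1 they were 1179, and without library 3 of that group 1303. For the members, the count of calls also varied with EuMyc libraries and EuMyc Max KO library 2. That count was 15 without EuMyc Max KO library 2, where 771 of all genes tested fell, and 17 without EuMyc library 3, where 887 did. Bub1b, Ckap2l and Cks1b were called in all 12 of these fits, and the median log2 fold change stayed between -1.01 and -0.89.

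In EuMyc Max KO cells the genes were far below their level in EuMyc cells. Of the 59, 57 fell and none rose, where 36.1% of all genes tested fell and 37.6% rose, and the median log2 fold change was -1.66 against 0.028 over all genes tested. All 3 EuMyc Max KO libraries lay below all 3 EuMyc libraries for 58 genes, against 37.9% of all genes tested. Bub1b fell the furthest (log2 fold change -2.62, SE 0.22, adjusted p = 2.13e-06), followed by Ttk, at -2.48 (SE 0.23, adjusted p = 2.18e-06), and Cdc20, at -2.40 (SE 0.20, adjusted p = 1.1e-06). Ube2c, with -0.80 (SE 0.44, adjusted p = 0.128), and Pttg1, with -0.56 (SE 0.35, adjusted p = 0.18), did not pass, but both fell without EuMyc Max KO library 1. Mki67, with -0.97 (SE 0.37, adjusted p = 0.0356), lost its call without EuMyc Max KO library 2 or any EuMyc library, and the other 56 kept theirs with each of the 12 libraries left out. As a share of the EuMyc mean, the members' median was 42.7% in EuMyc Max KO library 1, 31.4% in library 2 and 16.5% in library 3. The difference was thus smaller in the libraries with more erythroid and macrophage signal, and neutrophil markers followed the same order, at 277, 254 and 33.5 CPM. Markers of progenitor and precursor B cells were lower with the members, at 244 to 306 CPM against 1304 to 1354 in EuMyc, and 7 of 13 tested fell, with a median log2 fold change of -1.61. The part of these cells in the difference was not tested. With library 3, chosen after seeing the data, as the only EuMyc Max KO library, all 59 were below 0. The median was -2.61, with Ube2c at -2.25 and Pttg1 at -1.57. That lone library is assumed to vary like the other groups.

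The genes were not as low in EuMyc Max KO as in Max KO cells. All 59 rose between Max KO and EuMyc Max KO, where 10.7% of all genes tested rose and 3.69% fell, with a median log2 fold change of 2.70 against -0.0016 over all genes. All 3 EuMyc Max KO libraries lay above all 3 Max KO libraries for all 59, as they did for 17.2% of all genes tested. The changes ran from Bub3, at 0.25 (SE 0.073, adjusted p = 0.037), to Mki67, at 3.84 (SE 0.41, adjusted p = 0.000583), with Ube2c at 3.84 (SE 0.53, adjusted p = 0.00193) and Ccnb2 at 3.72 (SE 0.43, adjusted p = 0.0007) close to it. Bub3 lost its call without WT library 3, any Max KO library, or EuMyc Max KO library 1 or 2, and Incenp without Max KO library 3. With library 3 as the only EuMyc Max KO library the median was 1.91. In the same comparison 15 of 17 tested erythroid markers and 7 of 13 markers of progenitor and precursor B cells rose; their part in the result was not tested.

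Compared with WT, 55 of the 59 rose in EuMyc Max KO cells, where 17% of all genes tested rose and 10.8% fell, and the median log2 fold change was 1.62 against -0.0008 over all genes. All 3 EuMyc Max KO libraries lay above all 3 WT libraries for 56 genes, against 22.2% of all genes tested. The largest rises were those of Ube2c, at 2.95 (SE 0.49, adjusted p = 0.00311), Anln, at 2.91 (SE 0.38, adjusted p = 0.00104), and Mki67, at 2.60 (SE 0.39, adjusted p = 0.0019). The 4 that did not pass were Bub3, with 0.024 (SE 0.073, adjusted p = 0.833), Kif20b, with 0.22 (SE 0.098, adjusted p = 0.108), Ndc80, with 0.55 (SE 0.19, adjusted p = 0.0545), and Cdc25b, with 0.61 (SE 0.23, adjusted p = 0.0768). The call of Incenp was lost without WT library 2, that of Foxm1 without WT library 1 or 2, that of Smc4 without WT library 1 or 3 or EuMyc Max KO library 1, and that of Cenpa without WT library 2 or 3 or EuMyc Max KO library 1 or 2. Without EuMyc Max KO library 3, Cdc25b, Ndc80 and Kif20b rose as well. With library 3 as the only EuMyc Max KO library the median was 0.735, with 56 members above 0 and 3 below. Libraries 1 and 2, whose erythroid markers summed to 7645 and 5095 CPM, had a members' median of 59.9 and 43.9 CPM against 12.6 to 13.7 in WT, and library 3, at 1336 CPM, one of 23.6; the part of erythroid cells in the difference was not tested. The comparisons share libraries (EuMyc Max KO enters 3 of them and WT 3), so they are not independent of each other.

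**Figure D3:**
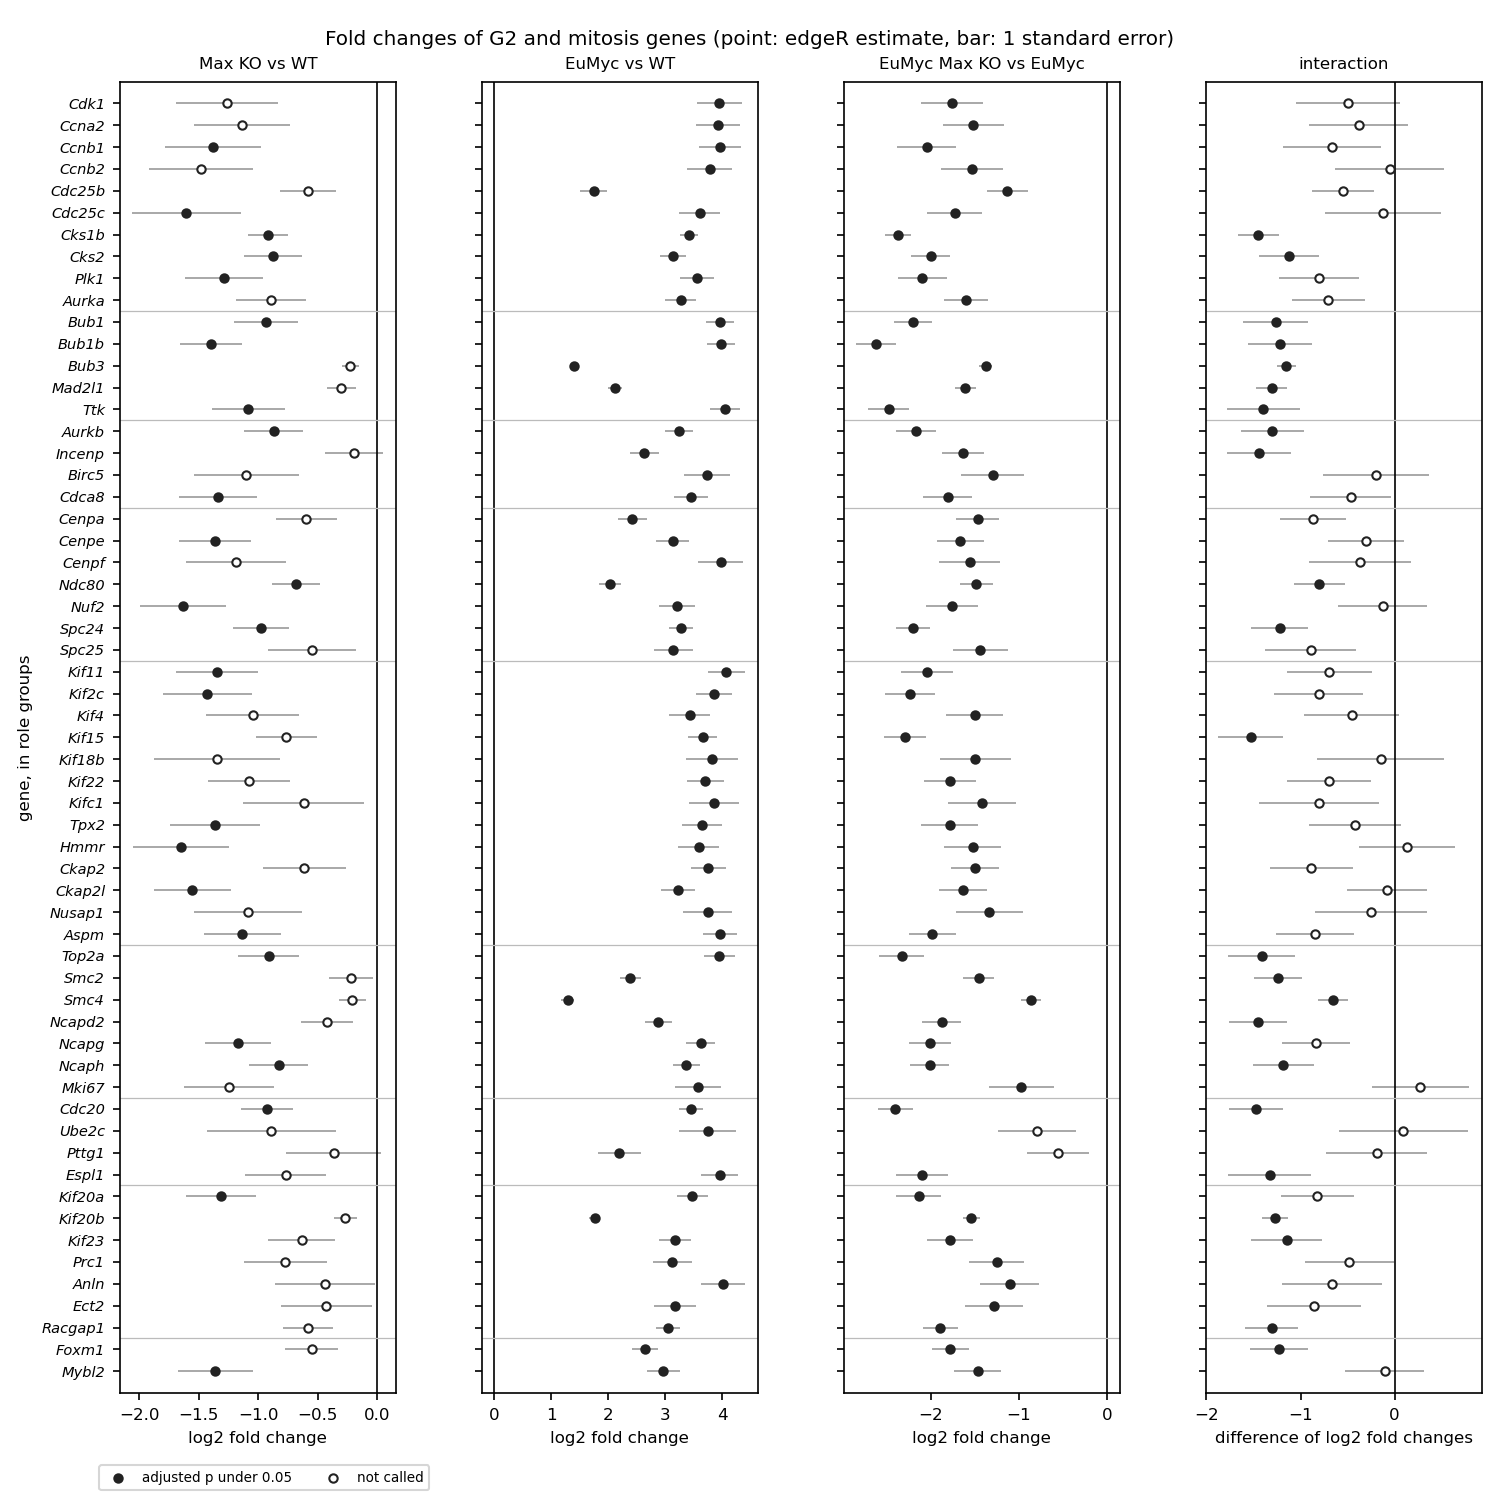
Log2 fold change of each of the 59 genes (point) with 1 standard error (bar) in 3 comparisons, and the difference between the Max KO effect with and without the transgene (right panel, headed interaction); filled points have an adjusted p under 0.05. Every point lies left of 0 for Max KO against WT and for EuMyc Max KO against EuMyc, every point lies right of 0 for EuMyc against WT, and 56 of 59 lie left of 0 in the right panel.

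Whether the knockout lowered these genes more in the presence of the transgene was tested as the difference between the log2 fold changes of EuMyc Max KO against EuMyc and of Max KO against WT. The difference was below 0 and passed the test for 23 genes and above 0 for none, where 27.9% of all genes tested were called below 0 and 27.8% above. At 39% the members' share below 0 stood against 27.9%, and at 0% the share above 0 against 27.8%; the median difference was -0.80 over the members and 0.024 over all genes tested. Kif15, a spindle kinesin, had the lowest value, -1.53 (SE 0.35, adjusted p = 0.00367), followed by Cdc20, -1.47 (SE 0.29, adjusted p = 0.00144), and Ncapd2, -1.45 (SE 0.31, adjusted p = 0.00257). The called genes were not spread evenly over roles: they included all 5 spindle checkpoint genes and 5 of 7 chromosome structure genes, but 1 of 13 spindle motors and microtubule proteins; the difference between roles was not tested. Mki67, at 0.27 (SE 0.52, adjusted p = 0.678), Hmmr, at 0.13 (SE 0.51, adjusted p = 0.849), and Ube2c, at 0.093 (SE 0.69, adjusted p = 0.919), had the highest values, and none passed. Of the 23 calls, 20 were made with each of the 12 libraries left out in turn, and Ndc80, Espl1 and Kif23 were the others. Ndc80 lost its call without WT library 1 or 2, Max KO library 1 or 3, or EuMyc library 2. Espl1 lost it without WT library 2, Max KO library 1 or 2, or library 2 of EuMyc or EuMyc Max KO, and Kif23 without WT library 1 or the same 4 others. Beside the members, the difference was below 0 for 5 of 13 tested markers of progenitor and precursor B cells, and above 0 for 9 of 9 of germinal centre B cells and 9 of 11 of macrophages, by the same test; their part in the result was not tested. Without EuMyc Max KO library 3 the median difference was -0.519, with 12 members above 0 and 28 called below it. The count was 37 without EuMyc Max KO library 1. Over all genes tested, 3648 were called below 0 without library 3 of that group and 3536 without library 1, against 3589 with all libraries. With library 3 alone the members' median was -1.61, and the values of Mki67, Hmmr and Ube2c changed sign to -0.943, -0.938 and -1.34.

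Among the genes that start mitosis, Cdk1 encodes the mitotic kinase and Ccnb1 its cyclin; both are shown for their role and were chosen after their values were seen. Cdk1 measured 11.2, 10.8 and 9.23 CPM in WT and 147, 175 and 159 in EuMyc, with 5.25, 4.86 and 2.97 in Max KO and 72.6, 47.9 and 21.9 in EuMyc Max KO. Ccnb1 measured 12.1, 13.2 and 13.6 CPM in WT and 191, 224 and 194 in EuMyc, with 5.42, 6.84 and 2.8 in Max KO and 73, 48.1 and 26.4 in EuMyc Max KO. For both genes all groups were separate, and EuMyc Max KO library 3 was closer to WT than the other libraries of its group. Cdk1 fell between EuMyc and EuMyc Max KO (log2 fold change -1.76, SE 0.35, adjusted p = 0.00119), and its value of -1.26 (SE 0.43, adjusted p = 0.0798) between WT and Max KO did not pass, while that of Ccnb1, -1.38 (SE 0.41, adjusted p = 0.0493), did. Cks1b, a small CDK-binding subunit, had the smallest p of the 10 entry genes in all 6 comparisons. It measured 10.1, 10.6 and 10.1 CPM in WT and 104, 113 and 111 in EuMyc, with 5.87, 4.86 and 5.49 in Max KO and 26.4, 21.9 and 15.4 in EuMyc Max KO, with no overlap between groups and a ratio of library 1 to library 3 of 1.71 in EuMyc Max KO. It fell in Max KO (log2 fold change -0.92, SE 0.17, adjusted p = 0.00463), and in EuMyc Max KO against EuMyc (log2 fold change -2.37, SE 0.15, adjusted p = 2.32e-08), and rose in EuMyc (log2 fold change 3.42, SE 0.16, adjusted p = 1.83e-09). The difference between the knockout effects was -1.45 (SE 0.22, adjusted p = 0.000142). Cdc25c measured 1.43, 1.76 and 1.91 CPM in WT and 19.8, 21.6 and 20.6 in EuMyc, with 0.339, 0.895 and 0.457 in Max KO and 9.36, 6.19 and 3.17 in EuMyc Max KO, so each Max KO library held less than 1 CPM. Ccnb2, the second B-type cyclin, measured 12.1, 10.9 and 10.1 CPM in WT and 143, 167 and 143 in EuMyc, with 5.2, 3.9 and 2.74 in Max KO and 78.2, 55.1 and 23.4 in EuMyc Max KO. It rose between Max KO and EuMyc Max KO (log2 fold change 3.72, SE 0.43, adjusted p = 0.0007). Cdc25b, the phosphatase that acts early in G2, was already abundant in WT. It measured 107, 108 and 101 CPM in WT and 330, 354 and 375 in EuMyc, with 63, 76.7 and 71.4 in Max KO and 228, 156 and 99.9 in EuMyc Max KO. EuMyc Max KO library 3 overlapped WT. In this group 5 of 10 fell in Max KO (Ccnb1, Cdc25c, Cks1b, Cks2 and Plk1), all 10 fell in EuMyc Max KO against EuMyc, and Cks1b and Cks2 alone passed the test of the difference between these effects.

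**Figure D4:**
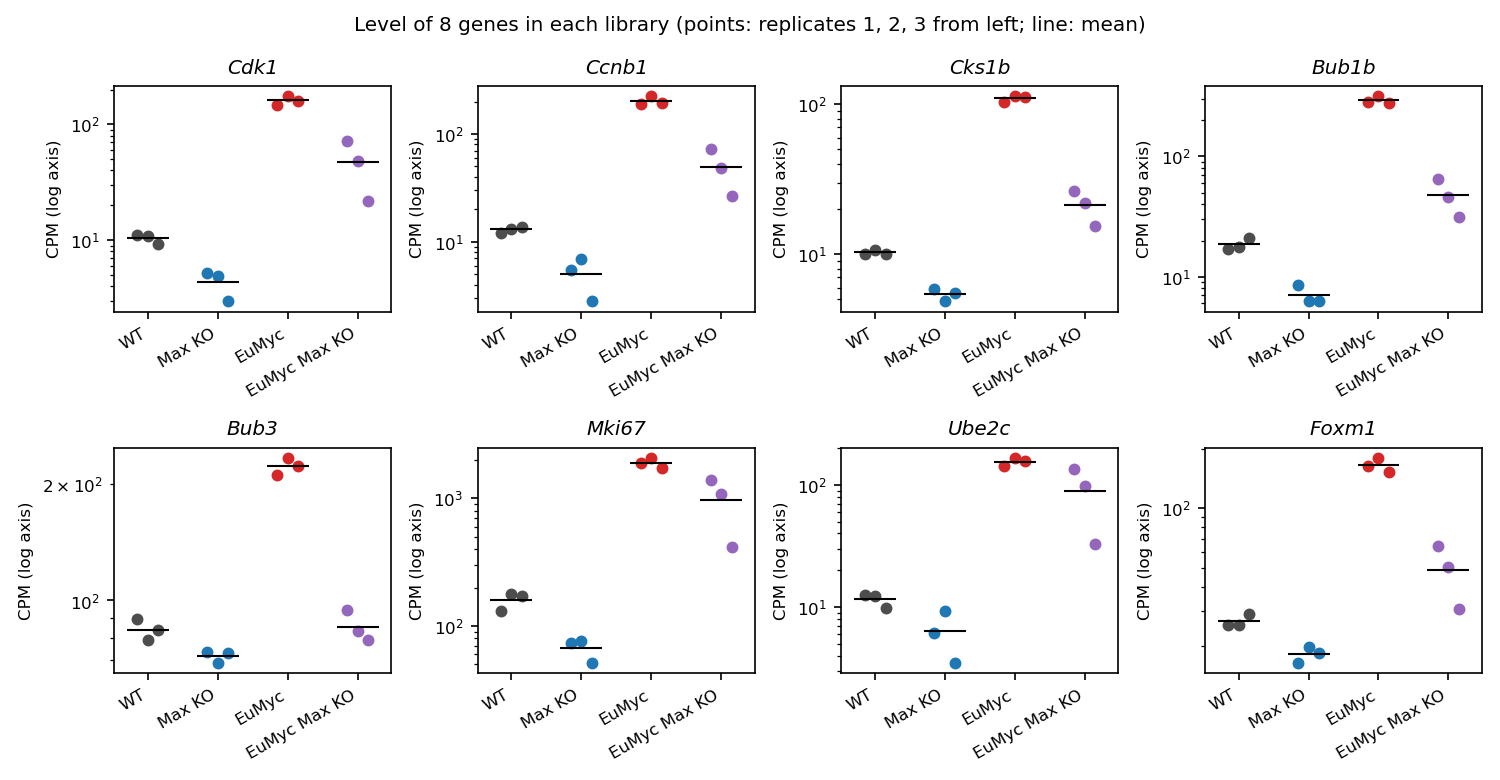
Level (CPM, log axis, a separate scale in each panel) of 8 genes of different roles in each library, with replicates 1, 2 and 3 from left in each group and the group mean as a line. EuMyc is highest and Max KO lowest in each panel; Bub3 in EuMyc Max KO lies at the WT level, whereas Mki67 and Ube2c in EuMyc Max KO libraries 1 and 2 lie well above it.

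The 5 genes of the spindle checkpoint, which delays anaphase until every kinetochore is attached, included the strongest falls of the list in EuMyc Max KO. Bub1b, encoding BUBR1, measured 17.1, 17.6 and 21.1 CPM in WT and 282, 316 and 279 in EuMyc, with 8.53, 6.26 and 6.34 in Max KO and 65.1, 46.3 and 31.6 in EuMyc Max KO. Ttk, encoding the MPS1 kinase, measured 3.55, 4.38 and 5.36 CPM in WT and 76.2, 75.7 and 67.9 in EuMyc, with 2.26, 2.24 and 1.77 in Max KO and 18.9, 12.1 and 8.47 in EuMyc Max KO. In both genes EuMyc stood far above all other libraries. Bub1b was also lower in Max KO than in WT (log2 fold change -1.40, SE 0.26, adjusted p = 0.00813), and its change in EuMyc Max KO differed from that (log2 difference -1.22, SE 0.34, adjusted p = 0.0113). Bub1, the kinase that recruits other checkpoint proteins, measured 5.96, 6.99 and 8.82 CPM in WT and 113, 121 and 105 in EuMyc, with 4.4, 3.58 and 3.37 in Max KO and 31.9, 26.4 and 15.8 in EuMyc Max KO. It rose between Max KO and EuMyc Max KO (log2 fold change 2.70, SE 0.25, adjusted p = 0.00039). Bub3, the WD-repeat partner of BUB1 and BUBR1, had the smallest rise of the group in EuMyc. It measured 89.5, 78.9 and 84.1 CPM in WT and 211, 234 and 223 in EuMyc, with 73.7, 69 and 73 in Max KO and 94.4, 83.5 and 78.9 in EuMyc Max KO. Its EuMyc Max KO libraries overlapped those of WT, its fall against EuMyc was -1.38 (SE 0.073, adjusted p = 4.56e-09), and the difference between the knockout effects was -1.15 (SE 0.10, adjusted p = 1.51e-06). For Mad2l1, a checkpoint protein that inhibits CDC20, the log2 fold change in Max KO, -0.30 (SE 0.12, adjusted p = 0.109), did not pass.

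The chromosomal passenger complex corrects faulty attachments and later helps cytokinesis. Aurkb, its kinase, measured 20.1, 21.4 and 19.4 CPM in WT and 181, 211 and 185 in EuMyc, with 11.6, 10.8 and 10.9 in Max KO and 57.2, 46.1 and 25.3 in EuMyc Max KO. Incenp, its scaffold, measured 46.6, 40.8 and 47.5 CPM in WT and 261, 307 and 269 in EuMyc, with 41.1, 42.9 and 34.1 in Max KO and 124, 90.9 and 55 in EuMyc Max KO. The WT and Max KO libraries of Incenp overlapped, while those of Aurkb did not. Aurkb rose in EuMyc (log2 fold change 3.24, SE 0.24, adjusted p = 6.25e-07) and fell in EuMyc Max KO against EuMyc (log2 fold change -2.17, SE 0.23, adjusted p = 9.91e-06). The difference between the knockout effects was -1.30 (SE 0.33, adjusted p = 0.00738) for Aurkb and -1.44 (SE 0.34, adjusted p = 0.0049) for Incenp. Birc5, encoding survivin, measured 10, 9.83 and 10.9 CPM in WT and 131, 144 and 134 in EuMyc, with 3.61, 6.9 and 3.94 in Max KO and 82.1, 59.5 and 24.5 in EuMyc Max KO, so that EuMyc Max KO was above WT in each library (log2 fold change 2.43, SE 0.39, adjusted p = 0.00248). Cdca8, encoding borealin, measured 13, 12.4 and 14.1 CPM in WT and 137, 150 and 144 in EuMyc, with 5.7, 4.54 and 5.31 in Max KO and 59.3, 42.6 and 21.4 in EuMyc Max KO. It fell in Max KO (log2 fold change -1.34, SE 0.33, adjusted p = 0.0252). For Birc5 and Cdca8 the knockout effects with and without the transgene did not differ by the test, at -0.20 (SE 0.57, adjusted p = 0.789) and -0.47 (SE 0.43, adjusted p = 0.376).

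At the centromere and kinetochore, the NDC80 complex (Ndc80, Nuf2, Spc24 and Spc25) binds microtubules. Nuf2 measured 8.65, 8.64 and 12.6 CPM in WT and 85.5, 98.2 and 89.9 in EuMyc, with 3.28, 4.15 and 2.23 in Max KO and 37.4, 28.6 and 15 in EuMyc Max KO. Spc24 measured 5.73, 4.66 and 6.85 CPM in WT and 54.2, 62.1 and 50.4 in EuMyc, with 3.05, 3.07 and 2.63 in Max KO and 15.3, 12.8 and 8.16 in EuMyc Max KO. Both were lower in every Max KO library than in any WT library, and both fell, Nuf2 (log2 fold change -1.63, SE 0.36, adjusted p = 0.017) and Spc24 (log2 fold change -0.98, SE 0.23, adjusted p = 0.0173). Ndc80 measured 17.1, 17 and 18.7 CPM in WT and 69.3, 79.6 and 66.8 in EuMyc, with 11.6, 9.08 and 12.1 in Max KO and 33.5, 26.3 and 17.5 in EuMyc Max KO. In EuMyc Max KO library 3 it was within the range of WT. Its partner Spc24 rose in EuMyc (log2 fold change 3.27, SE 0.21, adjusted p = 3.08e-08) and fell in EuMyc Max KO against EuMyc (log2 fold change -2.20, SE 0.20, adjusted p = 6.23e-07), and the knockout effects differed (log2 difference -1.22, SE 0.30, adjusted p = 0.00452). Cenpf, a large protein of the outer kinetochore, measured 13.4, 18.1 and 16 CPM in WT and 247, 281 and 217 in EuMyc, with 7.74, 8.18 and 5.03 in Max KO and 122, 92.6 and 39 in EuMyc Max KO. All of its EuMyc Max KO libraries were above WT (log2 fold change 2.41, SE 0.38, adjusted p = 0.00228), and its value in Max KO, -1.19 (SE 0.42, adjusted p = 0.0907), did not pass. The group held 4 genes that fell in Max KO (Cenpe, Ndc80, Nuf2 and Spc24); all 7 fell in EuMyc Max KO against EuMyc, and Ndc80 and Spc24 passed the test of the difference between effects.

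The 13 spindle motors and microtubule proteins were the largest group, and all 13 rose in EuMyc, by a log2 fold change of 3.22 to 4.07. Kif11 measured 24.5, 22.1 and 25 CPM in WT and 376, 440 and 384 in EuMyc, with 11, 9.59 and 7.54 in Max KO and 140, 101 and 50.8 in EuMyc Max KO. Kif15, a plus-end kinesin that can stand in for KIF11, measured 12.7, 14.9 and 15.5 CPM in WT and 174, 198 and 171 in EuMyc, with 9.26, 7.09 and 8.97 in Max KO and 51, 36.9 and 23 in EuMyc Max KO. Both were highest in the EuMyc libraries and lowest in Max KO, with no overlap between groups. Kif15 fell (log2 fold change -2.29, SE 0.23, adjusted p = 7.71e-06) in EuMyc Max KO against EuMyc while its value in Max KO, -0.76 (SE 0.26, adjusted p = 0.0768), did not pass, and it was the only gene of the 13 whose knockout effects differed by the test. Hmmr, a spindle pole assembly factor, measured 9.57, 10.6 and 13.7 CPM in WT and 130, 145 and 131 in EuMyc, with 2.82, 4.35 and 3.66 in Max KO and 68.1, 51 and 22.5 in EuMyc Max KO. The Max KO libraries were all lower than WT, and the gene fell between EuMyc and EuMyc Max KO (log2 fold change -1.52, SE 0.32, adjusted p = 0.00174). Ckap2l, which binds spindle microtubules, measured 13.1, 13.8 and 13 CPM in WT and 119, 137 and 116 in EuMyc, with 4.57, 4.35 and 4.63 in Max KO and 59.9, 38 and 22.2 in EuMyc Max KO. It fell in Max KO (log2 fold change -1.55, SE 0.32, adjusted p = 0.0126), the smallest adjusted p of the group. Ckap2, a related protein, measured 4.58, 4.15 and 4.71 CPM in WT and 59.2, 66.4 and 55.7 in EuMyc, with 2.65, 2.62 and 3.49 in Max KO and 30.2, 22.9 and 11.2 in EuMyc Max KO. It rose in EuMyc Max KO against WT (log2 fold change 2.26, SE 0.30, adjusted p = 0.000952). In all, 6 of 13 fell in Max KO (Kif11, Kif2c, Tpx2, Hmmr, Ckap2l and Aspm), and all 13 fell in EuMyc Max KO against EuMyc and rose against WT.

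Genes of chromosome structure covered a wide range of changes. Smc4 and Smc2 encode the ATPase core of condensin, and Ncapd2, Ncapg and Ncaph the other subunits of condensin I. Smc4 measured 198, 218 and 201 CPM in WT and 482, 534 and 487 in EuMyc, with 185, 162 and 185 in Max KO and 327, 278 and 222 in EuMyc Max KO. Smc2 measured 56.1, 54.1 and 63.8 CPM in WT and 303, 325 and 284 in EuMyc, with 53.5, 43.1 and 52.6 in Max KO and 137, 118 and 76.3 in EuMyc Max KO. Both were already at a high level in WT, and in Max KO they lay just below it. Ncapd2 measured 90.4, 84.2 and 83.3 CPM in WT and 597, 685 and 615 in EuMyc, with 68.5, 68 and 55.9 in Max KO and 229, 180 and 108 in EuMyc Max KO. Ncapg measured 13.2, 13.6 and 13.3 CPM in WT and 160, 174 and 160 in EuMyc, with 7, 6.52 and 4.34 in Max KO and 56.8, 40.2 and 25.8 in EuMyc Max KO. Ncaph measured 16.9, 12.5 and 15.7 CPM in WT and 151, 165 and 150 in EuMyc, with 8.64, 8.76 and 8 in Max KO and 54.5, 35.6 and 25.5 in EuMyc Max KO. The groups were separate for these 3 subunits, and EuMyc Max KO library 3 was the closest of its group to WT. Ncapg (log2 fold change -1.17, SE 0.28, adjusted p = 0.0212) and Ncaph (log2 fold change -0.83, SE 0.25, adjusted p = 0.0477) fell in Max KO, whereas the value of Ncapd2, -0.42 (SE 0.22, adjusted p = 0.228), did not pass. The knockout effects differed for Smc2 (log2 difference -1.24, SE 0.26, adjusted p = 0.00213), and for Ncaph (log2 difference -1.18, SE 0.33, adjusted p = 0.0108). Top2a, the topoisomerase that untangles sister chromatids, and Smc4 also passed. Smc4 kept 65.3%, 55.5% and 44.3% of its EuMyc mean in EuMyc Max KO libraries 1, 2 and 3, and Mki67 kept 73.7%, 56.8% and 21.8%. Mki67 encodes the coat protein of mitotic chromosomes known as the proliferation marker Ki-67. It measured 130, 178 and 171 CPM in WT and 1880, 2080 and 1730 in EuMyc, with 73.6, 76.6 and 51.5 in Max KO and 1400, 1080 and 414 in EuMyc Max KO. Its EuMyc Max KO libraries 1 and 2 came nearer to EuMyc than to WT, library 3 did not, and none overlapped either group.

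Anaphase starts when the anaphase-promoting complex, activated by CDC20 and supplied with ubiquitin by UBE2C, marks securin (Pttg1) for destruction and frees separase (Espl1). Cdc20 measured 19.1, 17.3 and 19 CPM in WT and 190, 219 and 199 in EuMyc, with 11.1, 10.2 and 7.89 in Max KO and 49.6, 40 and 25.8 in EuMyc Max KO. Ube2c measured 12.5, 12.4 and 9.89 CPM in WT and 143, 167 and 156 in EuMyc, with 6.1, 9.33 and 3.49 in Max KO and 136, 98.9 and 33 in EuMyc Max KO. The pair differed in EuMyc Max KO, where Cdc20 was far below EuMyc in all 3 libraries, and Ube2c in library 3 but much less in libraries 1 and 2. Cdc20 fell in Max KO (log2 fold change -0.93, SE 0.22, adjusted p = 0.0192), and the knockout effects differed (log2 difference -1.47, SE 0.29, adjusted p = 0.00144). Pttg1 measured 8.37, 8.35 and 8.52 CPM in WT and 39.8, 49.8 and 25.9 in EuMyc, with 5.42, 7.8 and 6.4 in Max KO and 40.7, 24.7 and 13 in EuMyc Max KO, and the EuMyc libraries varied so much that EuMyc Max KO library 1 lay within their range. Its change was 2.19 (SE 0.38, adjusted p = 0.000452) in EuMyc against WT. Espl1 measured 11.9, 10.8 and 12.2 CPM in WT and 177, 204 and 161 in EuMyc, with 8.3, 6.9 and 5.26 in Max KO and 61.1, 42.6 and 22.9 in EuMyc Max KO, with all groups separate, and rose in EuMyc Max KO against WT (log2 fold change 1.86, SE 0.31, adjusted p = 0.00272). Its knockout effects differed (log2 difference -1.33, SE 0.44, adjusted p = 0.0278).

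The 7 cytokinesis genes had the smallest share of falls in Max KO of the 9 roles, 1 of 7, though other roles also had only 1 gene that fell (1 of 4 anaphase genes and 1 of 2 transcription factors). That gene was Kif20a, a kinesin of the central spindle, which measured 12.2, 12.6 and 14.5 CPM in WT and 129, 159 and 148 in EuMyc, with 6.04, 5.43 and 4.34 in Max KO and 45.6, 34.9 and 19.2 in EuMyc Max KO and fell (log2 fold change -1.31, SE 0.29, adjusted p = 0.0173). Kif20b, a related kinesin of the midbody, measured 33.7, 35.4 and 37.3 CPM in WT and 120, 131 and 110 in EuMyc, with 29.6, 26 and 32.7 in Max KO and 44.9, 41.3 and 37.8 in EuMyc Max KO. Its level in EuMyc Max KO was only slightly above WT in all 3 libraries, it fell against EuMyc (log2 fold change -1.54, SE 0.097, adjusted p = 1.9e-08), and the knockout effects differed (log2 difference -1.27, SE 0.14, adjusted p = 7.24e-06). Anln, encoding the cleavage-furrow scaffold anillin, measured 5.9, 5.74 and 6.49 CPM in WT and 97.9, 106 and 89.6 in EuMyc, with 4.4, 4.92 and 4.06 in Max KO and 71.6, 43.9 and 20.9 in EuMyc Max KO. The Anln libraries of Max KO were below those of WT by a value, -0.44 (SE 0.42, adjusted p = 0.531), that did not pass. Against EuMyc it fell (log2 fold change -1.11, SE 0.33, adjusted p = 0.012), less than most members, and all 3 of its EuMyc Max KO libraries stayed above WT. All 7 genes fell in EuMyc Max KO against EuMyc, and Kif20b, Kif23 and Racgap1 passed the test of the difference between effects.

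Both transcription factors of the list, which drive the other genes in G2, rose in EuMyc against WT and fell in EuMyc Max KO against EuMyc, as did 57 of the 59 genes in both comparisons. Foxm1 measured 25.4, 25.5 and 28.9 CPM in WT and 164, 181 and 154 in EuMyc, with 16.4, 19.8 and 18.4 in Max KO and 64.7, 50.4 and 30.7 in EuMyc Max KO. Mybl2, encoding B-MYB, measured 13.7, 11.8 and 12.9 CPM in WT and 90.5, 106 and 102 in EuMyc, with 5.03, 6.01 and 3.94 in Max KO and 52.2, 35.7 and 20.4 in EuMyc Max KO. All groups were separate for each gene. Foxm1 rose in EuMyc (log2 fold change 2.64, SE 0.22, adjusted p = 1.33e-06) and fell in EuMyc Max KO against EuMyc (log2 fold change -1.78, SE 0.21, adjusted p = 2.34e-05), and its value in Max KO, -0.55 (SE 0.22, adjusted p = 0.125), did not pass. Mybl2 fell in Max KO (log2 fold change -1.36, SE 0.32, adjusted p = 0.0202) and rose between Max KO and EuMyc Max KO (log2 fold change 2.86, SE 0.31, adjusted p = 0.000554). The knockout effects differed for Foxm1 (log2 difference -1.23, SE 0.30, adjusted p = 0.00605), and not by the test for Mybl2, at -0.11 (SE 0.42, adjusted p = 0.848).

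**Figure D5:**
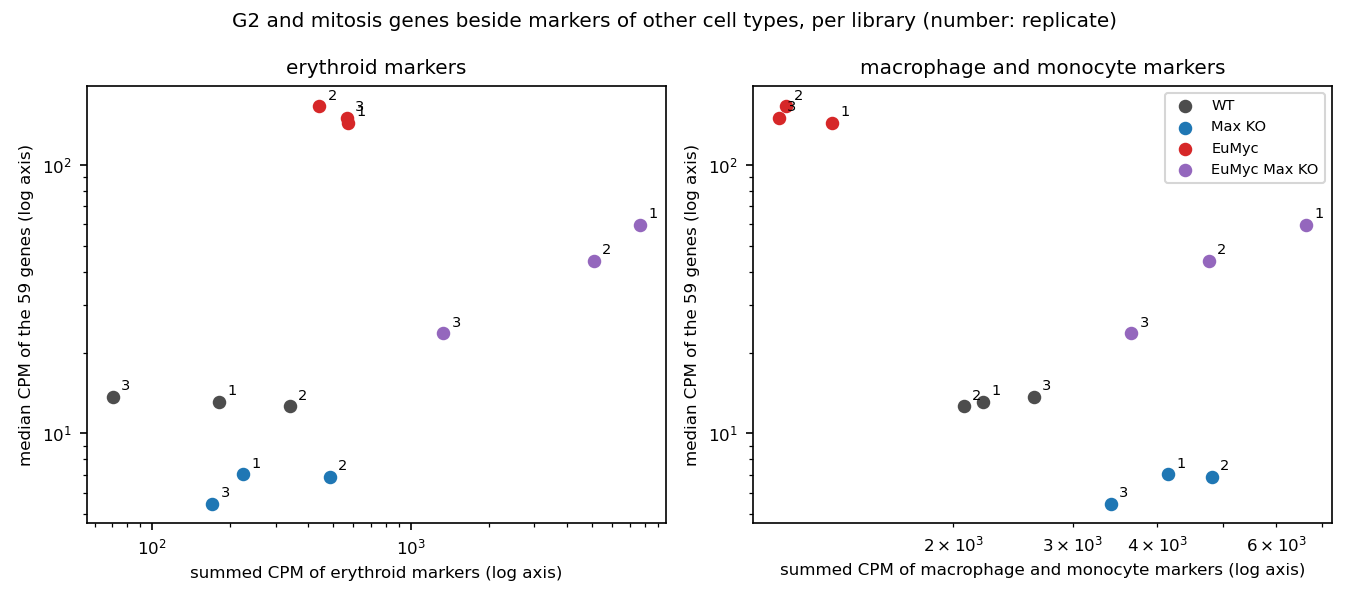
Median CPM of the 59 genes (vertical, log axis) against the summed CPM of erythroid markers (left, log axis) or of macrophage and monocyte markers (right, log axis), 1 point per library, coloured by group and numbered by replicate. The 3 EuMyc Max KO libraries, at 59.9, 43.9 and 23.6 CPM, keep the same order on both marker axes, and the EuMyc libraries have the highest medians, with erythroid sums of 443 to 572 CPM, above those of WT, and the lowest macrophage sums.

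Further genes of mitosis, a list of 68 tested genes that are not members, followed the members with smaller changes in Max KO. All 68 rose in EuMyc with a median log2 fold change of 2.98, 67 fell in EuMyc Max KO against EuMyc with a median of -1.44, and 8 fell in Max KO with a median of -0.48. Of all genes tested 36.7% rose in EuMyc and 36.1% fell in EuMyc Max KO against EuMyc. The 8 are 11.8% of the list, against 7.74% of all genes tested. Between Max KO and EuMyc Max KO 59 rose, 54 rose against WT, and 44 had a called difference between the knockout effects, all below 0, where 10.7%, 17% and 27.9% of all genes tested did. Cep55, a scaffold of abscission, was the gene of this list with the smallest p in Max KO. It measured 12.8, 11.8 and 15.2 CPM in WT and 82.5, 89.1 and 79.5 in EuMyc, with 6.89, 5.24 and 6.29 in Max KO and 13.1, 14 and 12.8 in EuMyc Max KO. Its 3 EuMyc Max KO libraries were alike and at the level of WT. It fell in Max KO (log2 fold change -1.11, SE 0.12, adjusted p = 0.00012) and in EuMyc Max KO against EuMyc (log2 fold change -2.65, SE 0.11, adjusted p = 7.75e-10). Trip13, which disassembles the checkpoint complex, measured 7.05, 4.66 and 6.43 CPM in WT and 47.6, 53.1 and 43.7 in EuMyc, with 5.48, 4.86 and 4.97 in Max KO and 9.36, 8.83 and 9.1 in EuMyc Max KO, again with little difference among the EuMyc Max KO libraries.

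Brakes on mitotic entry and genes of mitotic exit, 23 in all, had no shared direction in Max KO, where 3 rose and 3 fell. Most moved with the members in EuMyc, where 18 rose and 2 fell, and in EuMyc Max KO against EuMyc, where 2 rose and 18 fell. In EuMyc Max KO against WT 5 rose and 2 fell. The difference between the knockout effects was called below 0 for 16 and above 0 for 2, where 27.9% and 27.8% of all genes tested were. Of all genes tested 7.27% rose and 7.74% fell in Max KO, 36.7% and 34.9% in EuMyc, 37.6% and 36.1% in EuMyc Max KO against EuMyc, and 17% and 10.8% against WT. Those that rose in Max KO were Wee1 and Pkmyt1, the kinases that hold CDK1 inactive, and Cdc14a. Wee1 measured 13.6, 14.2 and 12.5 CPM in WT and 67.9, 78.9 and 68 in EuMyc, with 21, 19.8 and 25 in Max KO and 33.5, 30.5 and 31.2 in EuMyc Max KO. It was higher in every Max KO library than in any WT library (log2 fold change 0.70, SE 0.10, adjusted p = 0.00111), where Ccnb1 fell, and it rose in EuMyc (log2 fold change 2.41, SE 0.10, adjusted p = 7.97e-10). Pkmyt1 measured 19.3, 18.7 and 19.7 CPM in WT and 42.8, 50.4 and 40.7 in EuMyc, with 27.2, 26.8 and 32.7 in Max KO and 32.5, 35.1 and 27.7 in EuMyc Max KO. It rose in Max KO (log2 fold change 0.59, SE 0.11, adjusted p = 0.00579). Fzr1, an activator of the anaphase-promoting complex at mitotic exit, measured 62.9, 58.1 and 56.9 CPM in WT and 114, 115 and 124 in EuMyc, with 50.1, 55 and 50.1 in Max KO and 190, 136 and 70.1 in EuMyc Max KO, so its EuMyc Max KO libraries 1 and 2 exceeded all others.

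Among 16 subunits and partners of the MuvB and DREAM complexes, 11 rose and 1 fell in EuMyc, where 36.7% and 34.9% of all genes tested did. In EuMyc Max KO against EuMyc 1 rose and 11 fell, where 37.6% and 36.1% of all genes did. The only call in Max KO was Mybl1, encoding A-MYB, which is also on the list of germinal centre markers. It measured 10.8, 19.7 and 19.5 CPM in WT and 16, 13.3 and 11.8 in EuMyc, with 2.48, 1.53 and 2.74 in Max KO and 8.87, 7.13 and 8.94 in EuMyc Max KO. It fell in Max KO (log2 fold change -2.87, SE 0.27, adjusted p = 5.6e-05). Myb, which also marks precursor B cells, measured 40.2, 44 and 35.5 CPM in WT and 397, 403 and 362 in EuMyc, with 43.4, 41.9 and 44.3 in Max KO and 71.8, 70.5 and 57.1 in EuMyc Max KO. Tfdp1, the E2F dimer partner, measured 48.3, 45.2 and 54.2 CPM in WT and 350, 389 and 344 in EuMyc, with 39, 42.7 and 39 in Max KO and 100, 81.7 and 72.1 in EuMyc Max KO. In both genes the EuMyc Max KO libraries lay above WT and far below EuMyc, whereas Tfdp2 measured 43.7, 55.7 and 43.1 CPM in WT and 144, 139 and 130 in EuMyc, with 57, 57.7 and 59 in Max KO and 352, 284 and 103 in EuMyc Max KO, so that its EuMyc Max KO libraries 1 and 2 lay above EuMyc.

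S phase genes, which precede the members in the cell cycle, were compared by a list of 45. All 45 rose in EuMyc with a median log2 fold change of 2.23, 44 fell in EuMyc Max KO against EuMyc with a median of -1.66, and 18 fell in Max KO with a median of -0.39. Over all genes tested 36.7%, 36.1% and 7.74% did. The difference between the knockout effects was called for 40 of 45, all below 0, with a median of -1.19, where 27.9% of all genes tested were called below 0. The ratio of the members' median CPM to that of the S phase genes was 0.499, 0.472 and 0.475 in WT, 1.28, 1.20 and 1.28 in EuMyc, 0.296, 0.302 and 0.219 in Max KO, and 1.26, 1.16 and 0.689 in EuMyc Max KO. It was thus lower in all Max KO libraries than in WT, and in EuMyc Max KO libraries 1 and 2, unlike library 3, it was close to that of EuMyc. With 3 libraries against 3 an exact permutation test of such a ratio cannot give a p below 0.1, and none was run.

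The exons of 16 members overlap those of another gene in the GENCODE vM21 annotation, among them Cdc20 with Elovl1, Nusap1 with Oip5 and Ube2c with Tnnc2. The strand setting of the counting is not given in the sources used here, so the counts of these members are less certain than those of the others.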

How the data were processed

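RNA of B220+ splenocytes from 3 mice in each of 4 genotype groups was sequenced on 1 library per mouse. The deposited tables hold raw read counts per gene symbol, which the authors made with bcl2fastq 1.8.4, TopHat2 2.1.0 and HTSeq 0.6.1 on mm10, per the submitters' processing notes; the strand setting and annotation were not given in the sources used here. The 5 summary lines of each table were left out of library sizes and tests: reads without a feature were 12.5% to 20.3%, ambiguous reads 0.748% to 1.45% and reads with several alignments 20.3% to 27.9% of all entries in a table.

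Counts were fitted in R 4.3.3 with edgeR 4.0.16 (filterByExpr, TMM scaling, robust quasi-likelihood fit, 12 libraries, 8 residual degrees of freedom), and adjusted with the Benjamini-Hochberg method over 12878 genes; a gene is called at an adjusted p under 0.05. The code was tested on simulated data. CPM values use TMM-scaled library sizes. Gene lengths and coordinates come from GENCODE vM21 (GRCm38/mm10), and promoter windows from RefSeq (GRCm38.p6). Libraries held 14973332 to 21671601 reads in genes, and the common coefficient of biological variation was 13.7%. Counting error adds most for members with few reads, such as Cdc25c with 6, 14 and 8 reads in Max KO.

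The members and lists were chosen with earlier results of these data known. Genes given in full are, in each role and comparison, the called gene with the smallest p, the 3 highest and 3 lowest fold changes, and every member not called where over 40 are called; from other lists up to 3 called genes with the smallest p were eligible. Deviations from the group means correlated at 0.244, 0.39 and 0.105 in the 3 same-numbered pairs of WT and Max KO. Over all 18 same-numbered pairs the values ran from -0.133 to 0.39, and 6 exceeded 0.1. Libraries 3 of Max KO and EuMyc Max KO had 0.205. Differently numbered libraries had up to 0.197 (Max KO 2 and EuMyc Max KO 1), and WT 3 with Max KO 1 had 0.0873. A pairing of WT and Max KO by number was inferred from these values alone and is uncertain. The main fit used no block. Within groups, counts varied beyond sampling noise (chi-square per degree of freedom 7.46 to 68). Alternatives were other scaling factors, other filters, DESeq2 1.42.0, only the groups compared, the block, removal of haemoglobin genes and leaving out libraries. Haemoglobin genes held at most 0.001396% of the reads in genes of any library. Their removal could therefore hardly change a result and was no test of erythroid content.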

Additional observations from a re-analysis of the deposited data

Results flagged for a closer look

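The knockout effect differed with the transgene, by the test of that difference in edgeR's fit over all genes, for 23 of the 59 genes, all lower in the presence of the transgene. This is 39% of the members, where 27.9% of all genes tested were called in that direction. The share was larger in the related lists: 64.7% of the other mitosis genes and 88.9% of the S phase genes. It was 69.6% of the brakes and exit genes and 56.2% of the MuvB and DREAM subunits. The direction is therefore not particular to the members. The log2 difference was -1.53 for Kif15, -1.47 for Cdc20, -1.45 for Cks1b, -1.45 for Ncapd2, -1.44 for Incenp, -1.27 for Kif20b, -1.24 for Smc2, -1.23 for Foxm1, -1.22 for Spc24 and -1.15 for Bub3. Each of these 10 kept its call with every library left out in turn. Beside them, the erythroid markers summed to 7645, 5095 and 1336 CPM in EuMyc Max KO and to 443 to 572 CPM in EuMyc; their part in the differences was not tested. With library 3, chosen after seeing the data, as the only EuMyc Max KO library, the median difference of the 59 genes was -1.61.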

How the results depend on the processing

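Directions of the group medians were the same in every alternative run. Upper-quartile factors moved the median difference between knockout effects over all genes to 0.113 and library totals alone to 0.105. Under each, 23 members were called below 0 and 0 above. Over all genes tested, 3110 were called below 0 and 4048 above with upper-quartile factors, and 3168 and 4005 with library totals alone. For Max KO against WT the count of lower genes, 26, became 13 with no filter on low counts and 44 with DESeq2. It was 48 with only the groups compared and 47 with the WT and Max KO libraries under the replicate block. The replicate block over all 12 libraries gave 24, and leaving out a library gave 3 to 49. Over all genes tested, the 997 falls became 834, 1437, 1111, 1153 and 857 in those fits, in that order. With a library left out they were 411 to 1303. The median for EuMyc against WT was 3.33 with upper-quartile factors. Leaving out a library gave medians of -1.01 to -0.891 for Max KO against WT, 3.41 to 3.5 for EuMyc against WT, -2.04 to -1.41 for EuMyc Max KO against EuMyc, 2.39 to 2.97 against Max KO, 1.26 to 1.89 against WT and -1.15 to -0.519 for the difference between knockout effects, with 56 to 59, 57 to 59, 52 to 58 and 20 to 37 genes called in the last 4. Over all genes tested, calls in the same direction in those 4 were 4385 to 4704, 884 to 1837, 1575 to 2561 and 3279 to 3648. With EuMyc Max KO library 3 alone (chosen after seeing the data) the last 4 medians of the members were -2.61, 1.91, 0.735 and -1.61. The cause was not tested. Signs changed for Bub3 in EuMyc Max KO against WT (-0.016 with upper-quartile factors, -0.000117 with a CPM of at least 1 in 3 libraries, -0.115 with library 3 alone, and from -0.0514 to 0.0775 with a library left out, below 0 without WT 2, Max KO 3 or EuMyc Max KO 1), Cdc25b (-0.099) and Ndc80 (-0.027) with library 3 alone, and, for the difference between effects, Ube2c (-0.0331 with the replicate block, -0.345 to 0.493 with a library left out, -1.34 with library 3 alone), Hmmr (-0.232 to 0.466 and -0.938) and Mki67 (-0.0948 to 0.637 and -0.943). Of the other values for named genes, leaving out a library left 974 on the same side of the threshold and moved 44 below and 5 above it, and the other alternatives 813, 6 and 5. Depth limits the members with few reads (6, 14 and 8 for Cdc25c and 40, 35 and 31 for Ttk in Max KO), and 3 mice per group limit all.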
